A study of Mus musculus with 16 samples.

Results

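LIN28B/Apcmin tumours of the colon (n = 3) were compared with LIN28B/Apcmin tumours of the small intestine (n = 2), to see which differences between the organs persisted in tumours that carry both alleles. The members were chosen by the labels: the 3 colon tumours that share the title number 2135, and the small intestinal tumours numbered 2216 and 1052, which make up 5 of the 16 samples of the series. The other LIN28B/Apcmin colon tumour (replicate 4, number 1053) was left out because its array carried almost no signal. RNA of snap-frozen mouse tissue was measured on Illumina bead arrays, 1 array for each sample. All LIN28B/Apcmin mice had the genotype iLIN28B; Apcmin/+ and were 3 months old, and their tumours were labelled adenoma. The organ difference was also measured in Apcmin tumours (Apcmin/+, 2 colon and 2 small intestinal, 3 months, adenoma) and in normal wt mucosa (2 colon and 1 small intestinal, 3 months). Small intestinal LIN28B tumours (iLIN28B without Apcmin, n = 2, 8 months, adenoma or adenocarcinoma) entered the fit only for the estimate of spread. Every group, wt included, was on doxycycline from 6-7 weeks and on a mixed background of B6, 129, Balbc and CD1. The promoter that drives iLIN28B is not given in the sources used here. The series' design text names the duodenum for the Apcmin and LIN28B/Apcmin tumours of the small intestine, but not for the LIN28B tumours, of which replicate 2 is titled Jej. The title of small intestinal replicate 2 reads "Tum Muc", a term the labels do not explain.

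Apc holds back Wnt signalling, and the Apcmin allele truncates it, so that tumours form in which Wnt target genes are active. LIN28B is an RNA-binding protein of fetal and cancer cells that keeps let-7 microRNAs from maturing and so releases their targets. In normal gut, enterocytes of the duodenum absorb fat, sugars and amino acids under factors such as the HNF4, GATA4 and CREB3L3 proteins, while colonocytes recover salt and water and the distal gut keeps a posterior pattern of homeobox genes.

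On the 14 readable arrays 48.3% to 56.5% of 25697 probes were detected, against 12% on the colon tumour left out and 5.28% on replicate 1 of wt small intestine, also left out. The remaining wt small intestinal sample was taken to vary like the other groups. Colon replicate 3 had 1985 signals under 25, which were set to missing, so that 962 of 11230 genes rest on colon replicates 1 and 2. The number 2135 may stand for 1 animal. In that case animal cannot be told apart from organ, nor from genotype among the colon tumours. The p-values then measure only the spread between samples. Number 1032 is on wt colon replicate 2 and on the wt small intestinal array in use, and 1737 on both LIN28B tumours. The main fit took no account of these shared numbers. The number of arrays limits the precision. Spearman correlations were 0.952 to 0.966 between colon tumours, 0.961 between the small intestinal tumours and 0.875 to 0.911 across organs. Levels below are log2 normalised intensities, and differences are colon minus small intestine on the log2 scale ± the limma standard error (SE), so that a positive value is higher in colon. Where a gene was detected on only some arrays of its lower group, their number is given, since its difference then rests in part on levels not above background.

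Of 11230 genes, 937 were higher in LIN28B/Apcmin colon tumours and 844 in the small intestinal ones, together 15.9% (8.34% and 7.52%), at an adjusted p under 0.05 over all genes. The arrays of both organs did not overlap for 4796 genes, or 42.7%. The median difference over all genes was 0.0124. Without small intestinal replicate 2, 900 genes passed. With arrays that share a title number averaged, which takes the 3 colon tumours as 1 sample, 656 passed. In bulk tissue, fewer cells of a type and less RNA in each cell cannot be told apart.

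**Figure D1:**
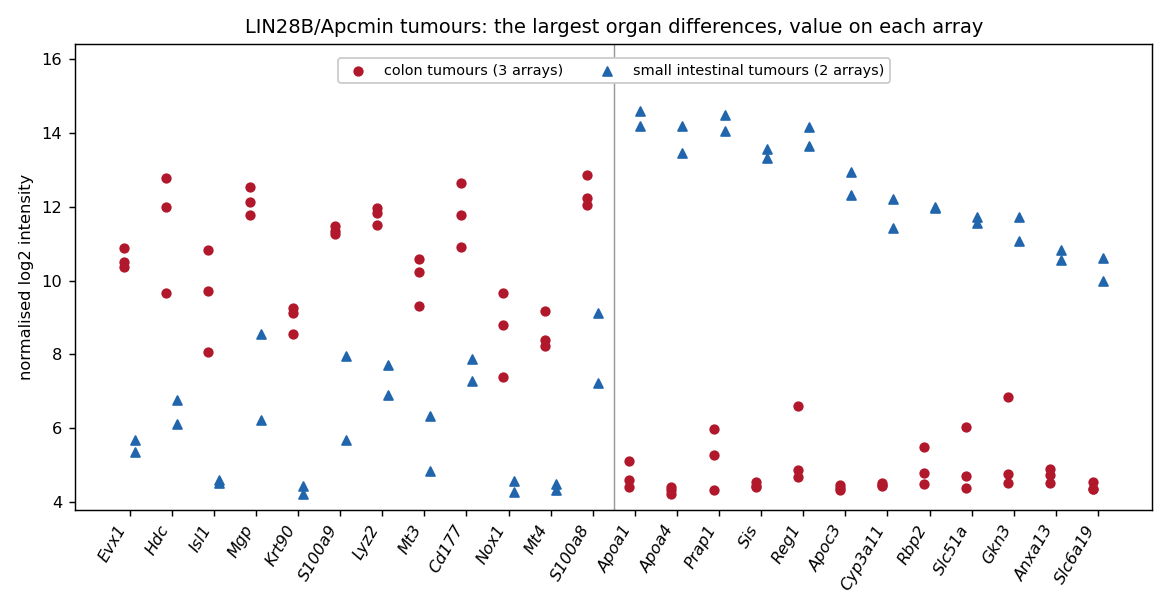
Log2 normalised intensity on each LIN28B/Apcmin array for the 12 genes with the largest differences in each direction, with circles for colon and triangles for small intestinal tumours. Apoa1 lay at 14.59 and 14.18 in the small intestinal tumours and between 4.41 and 5.11 in colon, and Evx1 lay between 10.38 and 10.88 in colon against 5.36 and 5.68.

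The gene with the largest difference, Apoa1, belonged to the absorptive programme of the small intestine. Of 46 listed enterocyte genes 35 were measured, and 28 of them were higher in the small intestine and 0 in colon, with a median of -4.37. The arrays did not overlap for 32 of the 35. Apoa1, the main protein of high-density lipoprotein, lay at 4.60, 4.41 and 5.11 in the colon tumours and at 14.59 and 14.18 in the small intestinal ones. The difference was -9.68 ± 0.28 (adjusted p = 1.8e-08), with Apoa1 detected on 1 of the 3 colon arrays. Its chylomicron partner Apoa4 lay at 4.35, 4.23 and 4.40 in colon and at 14.18 and 13.44 in the small intestine. For both genes every small intestinal array stood far above every colon array. Apoa4 was not detected on any colon array, and so its difference is given as a bound, at least 515-fold, for which each colon array was set no lower than the dimmest probe detected on it (adjusted p = 1.23e-06). Apoc3, an inhibitor of lipoprotein clearance, was at least 227-fold higher, and Slc6a19, the neutral amino acid transporter of the brush border, at least 45-fold higher.

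Sis, the sucrase-isomaltase of the brush border, lay at 4.43, 4.56 and 4.45 in the colon tumours and at 13.55 and 13.33 in the small intestinal tumours. Rbp2, which carries retinol inside enterocytes, lay at 5.50, 4.49 and 4.80 against 11.99 and 11.97. Neither gene overlapped between organs: Sis was at least 398-fold higher in the small intestine (adjusted p = 8.78e-07), and Rbp2, detected on 1 of 3 colon arrays, differed by -7.05 ± 0.43 (adjusted p = 3.68e-06). Of the listed enterocyte genes, Ace, Akp3, Slc15a1, Slc34a2, Slc40a1, Cybrd1 and Heph did not pass. The list's count was 26 without small intestinal replicate 1, 30 without replicate 2 and 27 with title numbers averaged. In Apcmin tumours 30 of the 35 were higher in the small intestine, among 9.07% of all genes, and in wt mucosa 25, among 3.02%.

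The promoters of both genes are shown because their transcripts rank among the widest organ differences. They are the 250 bases before the transcript start from RefSeq, build GRCm38.p6, read in the direction of transcription. Sis lies on the minus strand at chr3:72967864-72968113 and Rbp2 on the plus strand at chr9:98490287-98490536. Capitals mark matches on either strand to any of 4 motifs. The letters searched for GATA factors were AGATAA, and the HNF1 motif was read as GTTAAT. Sites for CDX factors were searched as TTTATTA, and the TATA box was taken to be TATAAA.
Sis: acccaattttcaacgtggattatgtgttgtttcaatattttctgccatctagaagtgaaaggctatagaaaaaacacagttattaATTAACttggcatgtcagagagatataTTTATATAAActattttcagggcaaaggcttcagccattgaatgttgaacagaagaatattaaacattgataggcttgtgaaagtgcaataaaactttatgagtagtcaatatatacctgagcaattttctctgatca
Rbp2: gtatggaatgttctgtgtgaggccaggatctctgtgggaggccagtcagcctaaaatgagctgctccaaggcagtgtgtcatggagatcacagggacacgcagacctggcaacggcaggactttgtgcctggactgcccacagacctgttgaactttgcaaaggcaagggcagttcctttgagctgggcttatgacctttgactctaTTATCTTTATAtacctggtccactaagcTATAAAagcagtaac
Sis held an HNF1 match and 2 overlapping TATA matches, and Rbp2 a GATA match that overlaps a TATA match, besides a TATA match nearer the start. AGATAA was found in 6.78% of the promoters of 9079 tested genes with a sequence, in 9.52% of 683 genes higher in the small intestine and in 5.14% of 739 genes higher in colon. For GTTAAT the shares were 4.33%, 7.17% and 3.38%, for TTTATTA 2.53%, 1.9% and 1.89%, and for TATAAA 8.12%, 10.1% and 9.47%, in the same order. A match is a description of the letters and not a site or a cause.

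Genes of drug and retinoid metabolism followed the same direction. Of 33 measured members, 21 were higher in the small intestinal tumours and 1, Cyp2d34, in colon, with a median of -2.88. Without small intestinal replicate 1 the 21 became 13. Cyp3a11, a main steroid and drug hydroxylase, was at least 129-fold higher in the small intestine (adjusted p = 0.000174). Cyp3a13, of the same family, differed by -5.84 ± 0.42, and Sult1d1, a sulfotransferase detected on 2 of 3 colon arrays, by -5.67 ± 0.51 (adjusted p = 1.2e-05 and 6.27e-05). The other, dimmer probe of Sult1d1 gave -0.93 ± 0.22. For Sult1d1 the wt arrays gave another picture, with 11.05 and 10.38 in wt colon and 10.64 in wt small intestine, where the difference of 0.07 ± 0.69 did not pass, and the difference in LIN28B/Apcmin tumours differed from it (interaction -5.74, adjusted p = 0.00618). Isx, a homeobox regulator of retinoid uptake, lay at 5.33, 4.91 and 4.84 in colon tumours and at 9.08 and 9.07 in the small intestinal ones (-4.05 ± 0.20, adjusted p = 8.78e-07). In wt colon it lay at 8.96 and 9.31 and in wt small intestine at 9.40, and this organ difference of -0.27 ± 0.27 did not pass. Each small intestinal tumour lay within the range of the wt arrays of both organs, and each colon tumour under every wt array.

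Bile acid genes showed a like pattern. The basolateral transporter subunit Slc51a lay at 6.03, 4.38 and 4.72 in the colon tumours and at 11.57 and 11.71 in the small intestinal tumours, with no overlap. The difference was -6.59 ± 0.43 (adjusted p = 6.44e-06), with Slc51a detected on 1 of 3 colon arrays, while in wt mucosa it lay at 10.22 and 11.03 in colon and 11.93 in small intestine (-1.30 ± 0.58, adjusted p = 0.278). Its partner subunit Slc51b differed by -3.60 ± 0.49, and Nr1h4, the bile acid receptor FXR, by -2.19 ± 0.31 on colon replicates 1 and 2 (adjusted p = 0.000853 and 0.00145). Of 9 measured genes of bile acid handling 5 were higher in the small intestine and 0 in colon, with a median of -1.63. The count was 5 whichever of the 5 arrays was left out.

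Gastric and Brunner gland genes, which normal duodenum carries through its submucosal glands, were higher in the small intestinal tumours for 11 of 19 measured members, 0 being higher in colon (median -2.39). The 11 became 7 without small intestinal replicate 2 and 5 with title numbers averaged. Gkn3, a gastrokine, lay at 4.78, 6.86 and 4.53 in colon and at 11.71 and 11.06 in the small intestine (-6.00 ± 0.97, adjusted p = 0.00237, detected on 2 of 3 colon arrays). Atp4a and Atp4b, the subunits of the gastric proton pump of parietal cells, are named next. Atp4a lay at 8.00 and 9.26 in the small intestinal LIN28B/Apcmin tumours, above its 12 other arrays, of which the highest was 5.49 in an Apcmin colon tumour. Among the 3 LIN28B/Apcmin colon arrays, 1 detected it. Atp4b, at 6.84 and 9.46 in the same tumours, was not detected on the colon ones, and was at least 10.1-fold higher in the small intestine (adjusted p = 0.00119). Its difference was -2.45 without small intestinal replicate 2. The mean over the list's genes with a value on all 14 arrays, as for every list mean below, was 8.22 and 8.60 in the small intestinal LIN28B/Apcmin tumours, 5.82 to 5.90 in the colon ones and 10.43 in wt small intestine. Whether stomach-type cells or glands were included in the samples was not tested. Of 9 measured genes of the exocrine pancreas, beside 7.52% of all genes, 1 was higher in the small intestine, Clps. Its call was lost without small intestinal replicate 2 (-1.11), colon replicate 2 (-1.21) or colon replicate 3 (-1.43), and with title numbers averaged.

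Of 14 measured regional factors of the distal gut, 1, Evx1, was higher in colon and 2, Isx and Cdx2, in the small intestine (median 0.342), the latter 1 without either small intestinal replicate or colon replicate 2 or 3. These counts stand beside 8.34% of all genes higher in colon and 7.52% in the small intestine. Evx1, a homeobox factor of the posterior embryo, had the largest difference in favour of colon. It lay at 10.88, 10.38 and 10.49 in the colon tumours against 5.36 and 5.68 in the small intestinal ones. It was 33.5-fold higher in colon (5.07 ± 0.22, adjusted p = 2.95e-07). In wt colon it lay at 6.57 and 6.72, and the wt difference of 1.70 ± 0.29 was smaller than that of the tumours (interaction 3.37, adjusted p = 0.000994). In Apcmin tumours the difference was 5.10 ± 0.24, with no difference between the genotypes past the threshold (-0.04, adjusted p = 0.967). The Evx1 promoter, shown because of this wide difference, lies on the plus strand at chr6:52313248-52313497 of GRCm38.p6. It holds none of the 4 motifs, each of which was found in at most 8.12% of the promoters of all tested genes. A single promoter without a match gives no contrast between organs.
Evx1: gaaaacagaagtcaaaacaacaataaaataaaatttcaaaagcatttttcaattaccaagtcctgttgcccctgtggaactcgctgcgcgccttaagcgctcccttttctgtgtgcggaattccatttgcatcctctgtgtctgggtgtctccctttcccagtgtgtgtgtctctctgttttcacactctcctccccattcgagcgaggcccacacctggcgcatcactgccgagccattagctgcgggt
Hoxb9, a posterior Hox gene, lay at 6.36, 6.17 and 5.99 in colon and was not detected in the small intestinal tumours, at least 2.40-fold higher (adjusted p = 0.000129). Of 27 measured Hox genes, 2 were higher in colon and 1 in the small intestine (median 0.00218), beside 8.34% and 7.52% of all genes. The counts were 5 and 0 in Apcmin tumours (10.3% and 9.07% of all genes) and 7 and 0 in wt mucosa (3.07% and 3.02%, median 1.41). The LIN28B/Apcmin and Apcmin differences did not differ past the threshold for any of them. Against wt mucosa 2 of the 27 differed, both below 0 (median -0.486): Hoxb6, by -2.45 ± 0.43, whose wt difference of 2.39 ± 0.34 stood at -0.07 ± 0.26 in the tumours, and Hoxb5, by -2.88 ± 0.60 (adjusted p = 0.0149 and 0.0351). Hoxb6 was chosen after its values were seen. In the LIN28B/Apcmin tumours the 2 Hox genes higher in colon became 1 without colon replicate 2 or 3 or either small intestinal replicate, and the single gene higher in the small intestine, Hoxb5, lost its call without colon replicate 2 or 3 or small intestinal replicate 1.

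On the small intestinal side, Creb3l3, which drives lipid genes in enterocytes, lay at 4.88, 4.30 and 4.82 in colon and at 9.79 and 9.47 in the small intestine (-4.96 ± 0.22, adjusted p = 3.17e-07, detected on 1 of 3 colon arrays). Hnf4g, an enterocyte nuclear receptor, was at least 2.33-fold higher there (adjusted p = 0.00229). Of 16 measured factors of the proximal gut, 6 were higher in the small intestine and 2, Foxa1 and Foxa2, in colon (median -0.970). The shares of all genes were 7.52% and 8.34%. The 6 became 5 without colon replicate 1 or 3, and Gata4 (-1.14) lost its call without either of these. Without small intestinal replicate 2 Gata4 stood at -0.92. Gata6 (-0.80) stood at -0.72 and -0.87 without small intestinal replicate 1 and 2. Foxa1 lost its call without small intestinal replicate 2 (0.81), and Foxa2 without small intestinal replicate 1 (0.96) or colon replicate 2 (1.29). Pdx1 (-1.93 ± 1.22), Gata5 (-1.40 ± 0.49), Onecut2 (-2.09 ± 0.86) and Hnf4a (-0.23 ± 0.24) did not pass. Cdx2, the master regulator of the intestinal fate, lay at 9.95, 7.86 and 8.17 in colon and at 10.45 and 10.85 in the small intestine (-1.99 ± 0.49, adjusted p = 0.0205). That call was lost without small intestinal replicate 1 or 2 or colon replicate 2 or 3, with differences from -2.20 to -1.59.

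Over all genes, 8.34% were higher in colon and 7.52% in the small intestine, with 10.3% and 9.07% in Apcmin tumours. Colonocyte genes gave no common direction. Of 32 measured members, 5 were higher in LIN28B/Apcmin colon and 6 in the small intestine, with a median of 0.315, whereas 13 and 0 passed in wt mucosa (median 1.78) and 12 and 5 in Apcmin tumours. Without small intestinal replicate 2 the 5 became 2, without colon replicate 3 they became 3, and without small intestinal replicate 1 the 6 became 2. The list's mean level was 7.33, 7.03 and 7.48 in the colon tumours and 7.11 and 6.81 in the small intestinal ones, against 10.17 and 10.05 in wt colon. Its members include B3galt5, a galactosyltransferase, at 8.01, 8.14 and 8.88 in colon and 4.98 and 4.33 in the small intestine (3.69 ± 0.36, adjusted p = 0.000113, detected on 1 of 2 small intestinal arrays), and Saa1, an acute phase protein, at least 3.17-fold higher in colon (adjusted p = 0.000989). Sgk1, a kinase that raises sodium uptake, was higher in the small intestine (-2.36 ± 0.39, adjusted p = 0.0027). Mptx1, a pentraxin abundant in wt colon at 12.24 and 12.75, lay at 5.26 and 5.27 in the colon tumours with a value and at 5.12 and 5.26 in the small intestinal tumours.

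Some of the largest colon differences were in genes without a wt difference past the threshold. Krt90, a keratin, lay at 9.25, 9.13 and 8.54 in the colon tumours, and was not detected in the small intestinal ones, at least 16.7-fold higher (adjusted p = 5.75e-06). It was not detected on any wt array of either organ. The metallothionein Mt4 repeated that order, with 8.40, 8.23 and 9.18 in colon tumours and 4.78 and 4.58 in wt colon, and was at least 13-fold higher in colon than in small intestinal tumours (adjusted p = 3.68e-06). Both were also called higher in colon in Apcmin tumours, where Krt90 was detected on 1 and Mt4 on 0 of the 2 small intestinal arrays. Mt3, of the same family, differed by 4.45 ± 0.47 and Mgp, an inhibitor of calcification, by 4.75 ± 0.51. Hdc, which makes histamine, lay at 9.67, 12.77 and 11.99 against 6.12 and 6.76 (5.03 ± 0.67, adjusted p = 0.000805). Nox1, the superoxide-forming oxidase of colon epithelium, was at least 13.1-fold higher in colon, and the neutrophil antigen Cd177 differed by 4.20 ± 0.57, both with a wt difference that also passed (3.36 ± 0.67 and 4.43 ± 0.76).

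Genes of the secretory lineages passed in both directions. Of all genes, 8.34% were higher in colon and 7.52% in the small intestine. Goblet cell genes passed for 3 of 17 measured members, all higher in the small intestine: Gal3st2, a mucin sulfotransferase, by -4.51 ± 0.72, Zg16, a mucus lectin, by -1.41 ± 0.21, and Tff3, a trefoil peptide, by -1.32 ± 0.21 (adjusted p from 0.00155 to 0.0023, list median -0.254). The other, dimmer probe of Gal3st2 gave only -0.35 ± 0.33. Genes listed for Paneth cells, a cell type that normal colon lacks, were higher in colon for 3 of 12 (Lyz2, Ang4 and Nupr1). In the small intestine 0 were higher, and the median was 0.236. Ang4 lost its call without small intestinal replicate 1 or 2 (adjusted p = 0.0932 and 0.102). Lyz2 is also a lysozyme of myeloid cells, named again among the myeloid genes below, and Nupr1 a general stress gene. Normal colon expressed Lyz2, at 10.67 and 10.30 in wt colon against 9.45 in wt small intestine. In wt mucosa 8 of the 12 were higher in the small intestine (median -3.87) and in Apcmin tumours 5 (median -1.36). The list's mean was 9.72, 9.61 and 9.85 in the LIN28B/Apcmin colon tumours, 8.64 and 9.28 in the small intestinal ones, 7.47 and 7.41 in wt colon and 11.58 in wt small intestine. Defa20, a defensin, lay at 11.53, 12.99 and 13.21 in colon and 11.95 and 12.34 in the small intestine, with overlapping arrays (0.43 ± 0.52, adjusted p = 0.617). Among 23 measured enteroendocrine genes, 2 were higher in colon, near the share of all genes, and 6 in the small intestine. The 6 became 3 without small intestinal replicate 2 and 1 with title numbers averaged. The 2 became 1 without colon replicate 2 or 3 or either small intestinal replicate. Isl1, a hormone cell factor, was at least 24.9-fold higher in colon (8.08, 10.83 and 9.73 against 4.62 and 4.53), and Sct, the secretin gene, was higher in the small intestine (-2.75 ± 0.42, adjusted p = 0.00173).

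**Figure D2:**
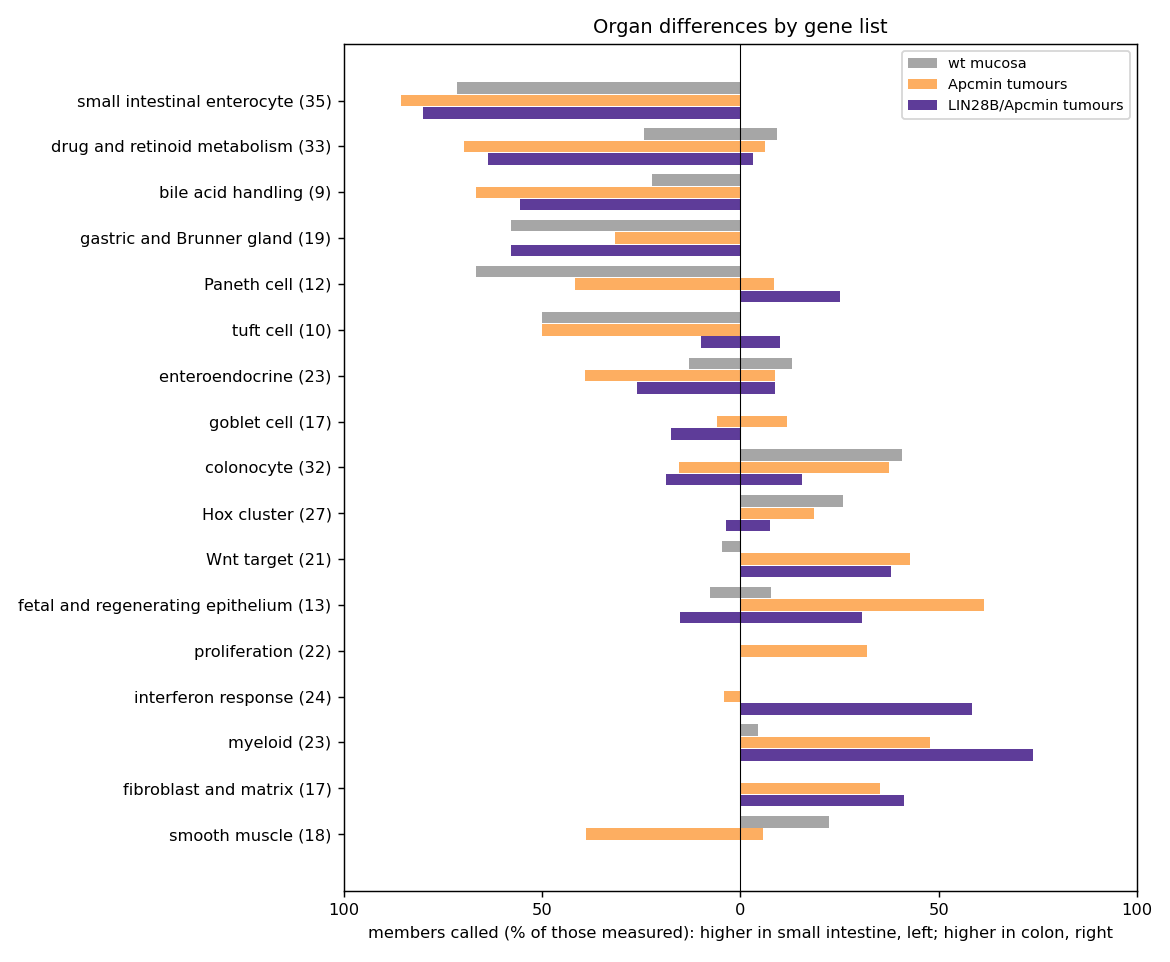
Share of the measured genes of each list (number in brackets) that was called higher in small intestine, to the left, or in colon, to the right, with a bar each for wt mucosa, Apcmin tumours and LIN28B/Apcmin tumours. On the small intestinal side 25, 30 and 28 of 35 enterocyte genes were called, and 8, 5 and 0 of 12 Paneth cell genes.

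The Wnt target genes that passed were higher in colon, as in Apcmin tumours, where 9 and 0 of 21 passed (median 1.06). Of the 21 in LIN28B/Apcmin tumours, 8 were higher in colon and 0 in the small intestine, with a median of 0.565. Without colon replicate 1 there were 5, without small intestinal replicate 1 or 2 there were 5 and 3, and with title numbers averaged 2. Axin2, the feedback inhibitor of the pathway, lay at 11.95, 11.65 and 11.71 in colon and at 10.27 and 10.77 in the small intestine (1.25 ± 0.20, adjusted p = 0.00221). Wif1, a secreted Wnt antagonist, lay at 11.03, 10.31 and 11.20 against 7.19 and 6.48 (4.01 ± 0.69, adjusted p = 0.00357), and Apcdd1, a membrane inhibitor, differed by 3.60 ± 0.59 (adjusted p = 0.00256). None of these 3 overlapped between organs. Lgr5, the stem cell receptor, did not pass at 7.56, 6.95 and 8.14 against 8.82 and 8.39 (-1.06 ± 0.47, adjusted p = 0.154), though it was higher in colon in Apcmin tumours (2.63 ± 0.52, adjusted p = 0.00554), a difference between genotypes of -3.69 that missed the threshold (adjusted p = 0.0538). Myc and Apc did not pass (0.56 ± 0.25 and 0.53 ± 0.26).

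Among let-7 targets, 1 of 24 measured was higher in colon and 4 in the small intestine (median -0.0567), beside 8.34% and 7.52% of all genes. Under median scaling, or with title numbers averaged, both counts were 0, and the 4 became 0 without small intestinal replicate 1 and 2 without colon replicate 1 or 2. Igf2bp1, a fetal RNA-binding protein, lay at 8.27 and 5.03 in colon, the signal of replicate 3 being lost, and at 7.27 and 8.30 in the small intestine (-1.14 ± 0.79, adjusted p = 0.368). Its paralog Igf2bp3 differed by -0.96 ± 0.64 (adjusted p = 0.338), with overlapping arrays for both. Of 22 proliferation genes 0 passed in either direction (median 0.0185), in limma's test whose unadjusted p was under 0.05 for 3483 of all genes, and 7 were higher in colon in Apcmin tumours. Among 13 fetal and regenerating genes, 4 were higher in colon and 2 in the small intestine, the 4 being 2 without small intestinal replicate 1 or colon replicate 2 and 1 without small intestinal replicate 2, under median scaling, or with title numbers averaged. In Apcmin tumours 8 and 0 of the 13 passed (median 1.88, against 0.331 in LIN28B/Apcmin tumours), beside 10.3% and 9.07% of all genes. The difference between genotypes was above 0 for 0 of the 13 (median -1.37) and passed for 2. Gbx2, a homeobox gene, lay at 4.56, 5.25 and 5.82 in colon and at 9.32 and 10.24 in the small intestine. Its difference was -4.57 ± 0.70 (adjusted p = 0.0018, detected on 2 of 3 colon arrays). In Apcmin tumours it did not pass (-0.89 ± 0.77), nor did its difference between genotypes. Dlk1, an imprinted fetal growth regulator, was at least 6.10-fold higher in colon (adjusted p = 0.000696).

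Genes of myeloid cells were higher in the colon tumours for 17 of 23 measured members and in the small intestine for 0, with a median of 2.16. Il1b, the inflammatory cytokine, lay at 10.37, 10.68 and 11.37 in colon and at 6.76 and 6.55 in the small intestine (4.15 ± 0.38, adjusted p = 6.97e-05). The neutrophil protein S100a9 lay at 11.25, 11.48 and 11.34 against 5.70 and 7.95 (4.53 ± 0.54, adjusted p = 0.000408), and Lyz2 at 11.97, 11.82 and 11.51 against 7.71 and 6.91 (4.46 ± 0.51, adjusted p = 0.000298). All 3 were far apart between organs. In Apcmin tumours 11 of the 23 were higher in colon, and in wt mucosa 1. The list's mean was 8.58 to 8.70 in the colon tumours and 6.17 and 6.37 in the small intestinal ones. The count was 10 without small intestinal replicate 2 and 9 with title numbers averaged. Fibroblast and matrix genes were higher in colon for 7 of 17 (median 0.879), 3 without small intestinal replicate 2, among them Vim, an intermediate filament of mesenchyme (2.67 ± 0.24, adjusted p = 6.97e-05), and Sparc, a matrix protein (1.53 ± 0.26, adjusted p = 0.00281). Lists for B cells (12 genes), smooth muscle (18), endothelium (11), red cells (4) and enteric neurons and glia (8) had 0 calls. The T cell list had 1 of 15, higher in colon, beside 8.34% of all genes. MHC class II genes had 0 calls of 9 as well, yet all 9 differences were above 0, with a median of 0.992, and the arrays did not overlap for 7 of them, beside 42.7% of all genes. In Apcmin tumours 1 of the 9 was above 0 (median -0.206). The part that a different mix of cells had in the other differences was not tested.

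Interferon response genes were higher in colon for 14 of 24 measured and in the small intestine for 0 (median 1.49), against 0 and 1 in Apcmin tumours (median -0.152) and 0 and 0 in wt mucosa. Ifit2, an interferon-induced inhibitor of translation, lay at 10.69, 9.92 and 10.72 in colon and at 7.56 and 5.41 in the small intestine (3.96 ± 0.62, adjusted p = 0.00213). The small intestinal tumours differed from each other: the list's mean was 7.36 in replicate 1 and 6.30 in replicate 2, against 7.98, 8.25 and 8.59 in colon. Without small intestinal replicate 2 only 2 genes passed, without colon replicate 2 or 3 there were 8 and 9, and with title numbers averaged 3. The difference between LIN28B/Apcmin and Apcmin tumours passed for 1 of the 24.

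**Figure D3:**
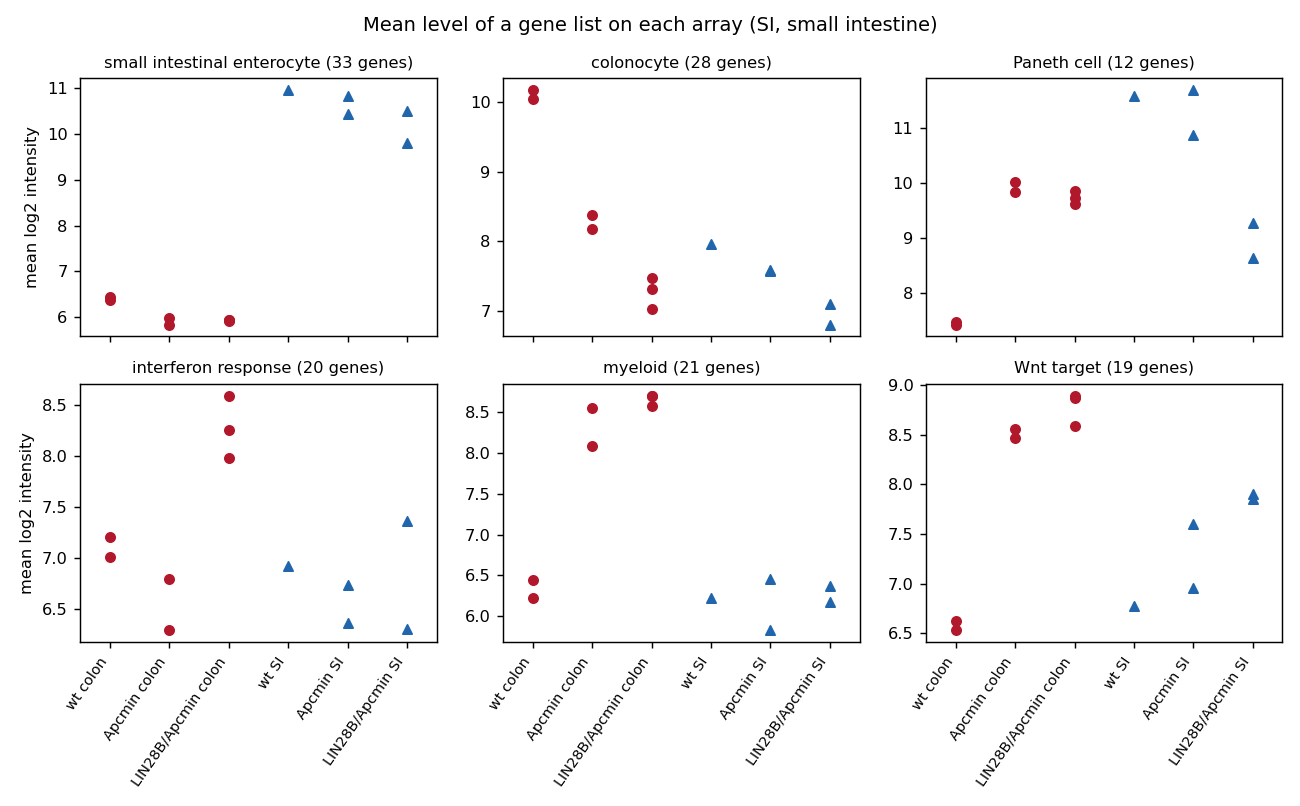
Mean log2 intensity of the genes of 6 lists that had a value on all 14 arrays (number in brackets), with a point for each array, colon in red circles and small intestine in blue triangles. Enterocyte genes stay near 5.92 to 5.94 in the 3 LIN28B/Apcmin colon tumours and at 10.51 and 9.80 in the small intestinal ones.

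The persistence of organ differences was counted from the normal mucosa onward. In wt mucosa 684 genes, or 6.09%, passed, and 333 or 349 without wt colon replicate 1 or 2. Of the 345 higher in wt colon (3.07% of all), 98 were also called higher in LIN28B/Apcmin colon tumours, 28.4% of the wt list and 10.5% of the tumour list. Of 339 genes higher in wt small intestine, 189 were also called in the tumours, 55.8% and 22.4%. Opposite calls were found for 10 and 4 genes. The same sign was kept by 75.7% of the colon genes and 88.8% of the small intestinal genes. Because the genes were chosen by the wt difference, its median of 1.61 in colon genes is high by choice, and medians of 0.692 in Apcmin and 0.369 in LIN28B/Apcmin tumours stand beside it. For the small intestinal genes the medians were -2.61, -1.98 and -1.20. The interaction with wt passed for 86 of the 345 and 52 of the 339, beside 257 of all genes or 2.29% (1.07% above 0 and 1.22% below). That 257 became 107 and 114 without wt colon replicate 1 and 2, and 165 without small intestinal replicate 2 of LIN28B/Apcmin.

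A set of 75 colon and 174 small intestinal genes was called in all 3 organ comparisons. These share no arrays, but they use the same estimate of spread for each gene, so their calls are not independent. The 75 include Evx1, Cd177, Nox1, B3galt5 and Hoxb9, and the 174 include Apoa1, Apoa4, Sis, Rbp2, Cyp3a11, Creb3l3 and Reg3a, an antimicrobial lectin. From Apcmin to LIN28B/Apcmin tumours, 433 of 1157 colon genes (37.4%, or 46.2% of 937) and 438 of 1019 small intestinal genes (43.0%, or 51.9% of 844) were called again, among 2176 (19.4%) called in Apcmin tumours, with 2 and 6 opposite calls. With median scaling in place of quantile normalisation the Apcmin counts were 1635 and 782. Of the 433, 357 were not called in wt mucosa, and 52 of these also differed from wt by interaction. Of the 438 the numbers were 263 and 22. A further 504 colon and 406 small intestinal genes passed in LIN28B/Apcmin but not in Apcmin tumours, yet the genotypes differed past the threshold for only 5 and 10 of them. The share of wt colon genes called in the tumours was 18.8% without small intestinal replicate 2. For Apcmin colon genes it was 22.9% without the same array and 58.3% without Apcmin colon replicate 2 (56.2% without Apcmin small intestinal replicate 1), and for Apcmin small intestinal genes 28.6% without small intestinal replicate 1 of LIN28B/Apcmin. Apcmin tumours had 869 and 994 called genes without colon replicate 1 and 2 and 1260 without small intestinal replicate 1.

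**Figure D4:**
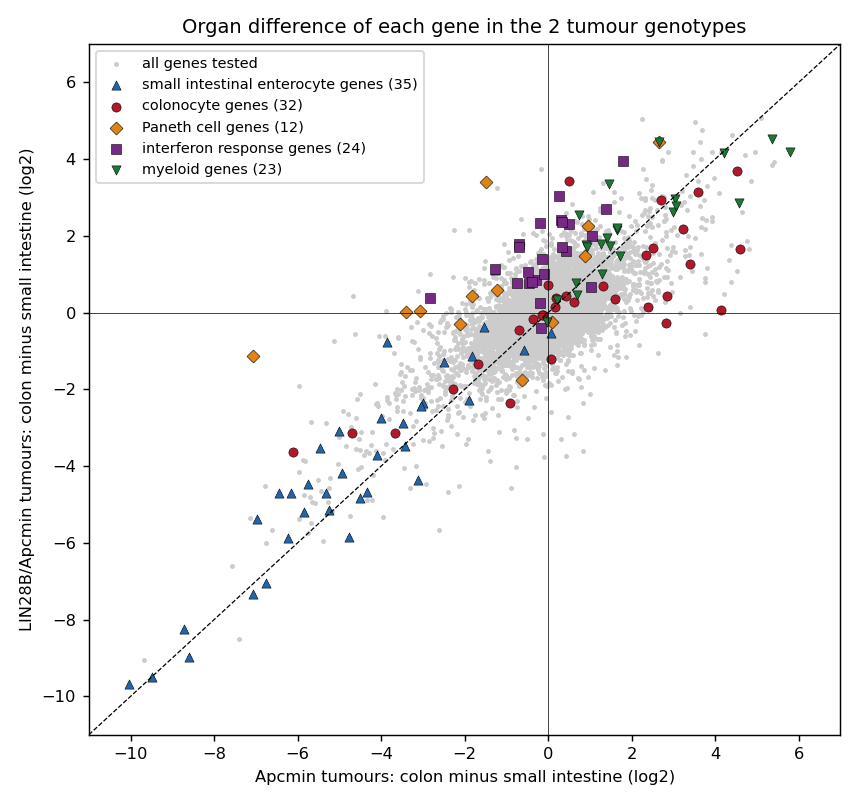
Organ difference of each gene tested (colon minus small intestine, log2) in Apcmin tumours on the x axis against LIN28B/Apcmin tumours on the y axis, with selected lists in colour and a dashed line where both are equal. Apoa1 sits at -10.04 and -9.68, and Evx1 at 5.10 and 5.07.

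Whether an organ difference depended on LIN28B was tested directly. The interaction between organ and LIN28B among Apcmin tumours passed for 47 genes, 0.419% of all, 23 above 0 (0.205%) and 24 below (0.214%; 18 and 44 with median scaling). That count was lowest, at 4, when replicate 2 of Apcmin colon was left out, and highest, at 373, when replicate 2 of Apcmin small intestine was. It was 304 and 13 without replicate 1 and 2 of the LIN28B/Apcmin small intestinal tumours, 28 without replicate 1 of their colon tumours and 15 without replicate 1 of Apcmin colon. Defa39, a Paneth cell defensin, lay at 12.02 and 12.47 in Apcmin small intestinal tumours, at 5.77 and 7.14 in the LIN28B/Apcmin ones and at 4.95 to 5.95 in LIN28B/Apcmin colon tumours. The LIN28B/Apcmin organ difference of -1.14 ± 0.39 therefore missed the threshold, against -7.06 ± 0.43 in Apcmin tumours, and the difference of differences was 5.92 ± 0.59 (adjusted p = 0.00326). Aqp7, a glycerol channel, went the same way, at 8.57 and 9.49 in Apcmin and 5.52 and 4.40 in LIN28B/Apcmin small intestinal tumours (4.09 ± 0.47, adjusted p = 0.00696, detected on 1 of the 2 latter and on 0 colon arrays of either genotype, a call lost without Apcmin colon replicate 2).

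Mptx1 showed the opposite sign, since Apcmin colon tumours still had it at 9.59 and 9.73 (-4.07 ± 0.34, adjusted p = 0.00326). Clu, a chaperone of regenerating epithelium, was higher in small intestinal than in colon LIN28B/Apcmin tumours (-1.71 ± 0.26), with 0.72 ± 0.28 in Apcmin tumours (interaction -2.43 ± 0.38, adjusted p = 0.0285). Alox5ap, which helps make leukotrienes and marks tuft cells and leukocytes, was higher in LIN28B/Apcmin colon tumours (1.79 ± 0.25, colon replicates 1 and 2) and lower in colon in Apcmin tumours (-1.05 ± 0.25). Its interaction of 2.84 ± 0.35 (adjusted p = 0.0117) was lost without Apcmin colon replicate 1 or 2 or small intestinal replicate 2 of LIN28B/Apcmin. Atp4a, described above, passed as well (-4.17 ± 0.54, adjusted p = 0.0117), a call lost without Apcmin colon replicate 1 or 2. Ccn2, a matrix protein and YAP target, had 2.94 ± 0.25 in Apcmin and 0.77 ± 0.23 in LIN28B/Apcmin tumours (-2.18 ± 0.34, adjusted p = 0.0285).

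**Figure D5:**
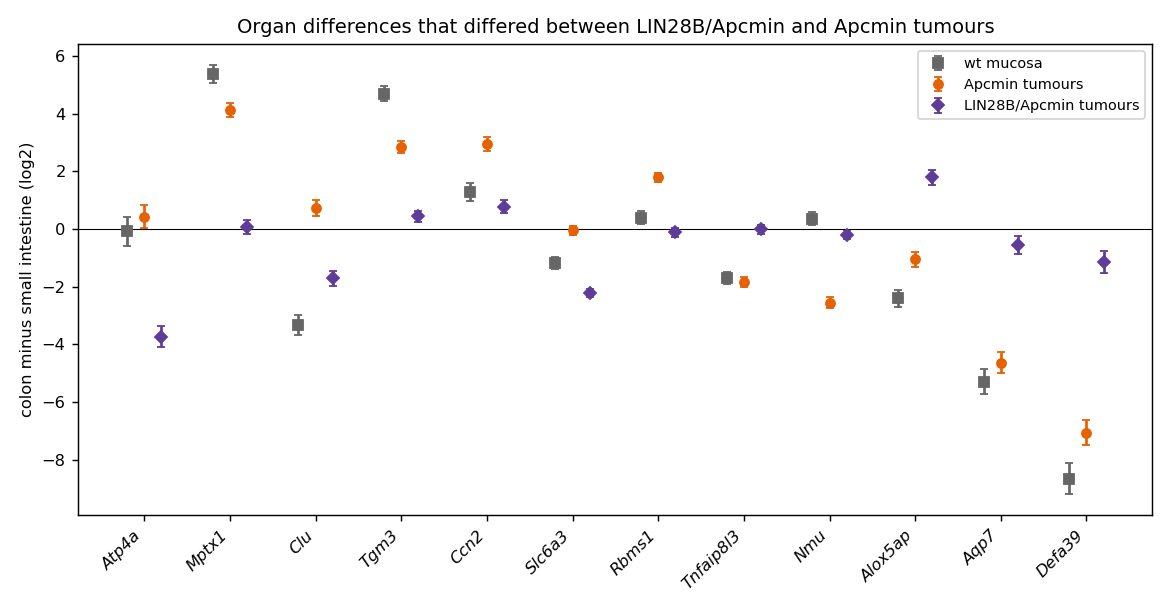
Organ difference (colon minus small intestine, log2) of the genes named for the interaction of organ and LIN28B, with points for wt mucosa, Apcmin tumours and LIN28B/Apcmin tumours and bars for the limma SE. Defa39 stands at -7.06 in Apcmin and -1.14 in LIN28B/Apcmin tumours, and Mptx1 at 4.14 and 0.07.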

How the data were processed

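The deposited intensity values are the average bead signals of each probe, as the authors exported them, with neither background subtraction nor normalisation between arrays. The authors also deposited a detection p-value beside each signal, made by software that is not given in the sources used here. The authors' series matrix, also in intensity units, was an alternative only. Arrays with under 20% of probes detected (p under 0.05) were left out, and signals under 25 were set to missing. The function nec of limma estimated each array's background from its detection p-values (normexp, offset 16), and log2 values were then quantile normalised. A probe was used if it named 1 gene and was detected on at least 2 of the 14 readable arrays, and the brightest such probe stood for its gene, which gave 11230 genes (23978 of 25697 probes named 1 gene and 1719 none). A model of group means (7 groups) was fitted by lmFit and eBayes (7 residual degrees of freedom), without a block, and contrasts were tested two-sided with Benjamini-Hochberg adjustment over all genes. The fit was tested on simulated data in which every array varied independently, so samples that share an animal were not simulated. Far fewer genes were changed there than were called in the data. There it called 39 of 100 genes changed 2-fold, 86 of 100 changed 4-fold and 5 of 11030 unchanged ones. A gene that was not called, or not called again, may therefore have been missed. The members and the 36 gene lists were chosen with earlier results of these data known.

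Named genes were the 12 largest called differences in each direction with arrays that do not overlap, detected on every array of the higher group, unnamed gene models skipped. To these came the 5 of smallest p in each direction for each interaction, up to 4 called members of each list and direction, the detected regional factors and let-7 targets, and Igf2bp1, Igf2bp3, Axin2, Lgr5, Apc, Myc and Cdx2. Other members are named only where a list is accounted for. Of 35 named genes with several probes, 27 were called, and of these Acadm had a probe of opposite sign. Other called genes had a probe of the same sign with a far smaller difference, among them Gal3st2 and Sult1d1. Promoters were matched by symbol to RefSeq (9079 of 11230 genes). Title numbers shared by samples were not used as a block in the main fit. Number 2135 covers every LIN28B/Apcmin colon tumour compared, and the estimated correlation of samples sharing a number was negative (-0.0761), which would shrink the SE. With title number as a random block, as an alternative, 2055 organ differences passed in LIN28B/Apcmin tumours. Of the same-numbered replicates of both organs, the deviations from the group means correlated at 0.0564 over 2 pairs, so the numbers were not taken to pair the samples. There were 0 columns of samples outside the series. Python 3.11 with matplotlib 3.10.9 and R 4.3.3 with limma 3.58.1 and data.table (version 1.17.8) were used.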

Additional observations from a re-analysis of the deposited data

Results flagged for a closer look

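LIN28B/Apcmin colon replicate 4 had 12% of probes detected, and its gap to the nearest of the 4 arrays of its group was 0.83 of their whole range, which stands apart by Dixon's criterion. Chance marks about 1 in 20 groups. This array entered no comparison of the main fit, only the alternative with all 16 arrays given below.

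The organ difference (colon minus small intestine, log2) differed between LIN28B/Apcmin and Apcmin tumours for these named genes by the limma interaction test (± SE, with adjusted p). Above 0 were Defa39 (5.92 ± 0.59, 0.00326), Nmu, a neuropeptide (2.36 ± 0.24, 0.00326), Aqp7 (4.09 ± 0.47, 0.00696), Tnfaip8l3 (1.82 ± 0.23, 0.00943) and Alox5ap (2.84 ± 0.35, 0.0117). Below 0 were Mptx1 (-4.07 ± 0.34, 0.00326), Slc6a3, the dopamine transporter (-2.17 ± 0.22, 0.00326), Tgm3, a transglutaminase (-2.41 ± 0.28, 0.00696), Rbms1, an RNA-binding protein (-1.89 ± 0.23, 0.00887), Atp4a (-4.17 ± 0.54, 0.0117), Ccn2 (-2.18 ± 0.34, 0.0285) and Clu (-2.43 ± 0.38, 0.0285). Without Apcmin colon replicate 2 the calls of Alox5ap, Aqp7, Atp4a, Rbms1, Tgm3 and Tnfaip8l3 were lost.

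The organ difference of LIN28B/Apcmin tumours differed from that of wt mucosa, with 1 wt small intestinal array, for further named genes. Above 0 were the defensins Defa20 (10.24 ± 0.86, 0.00024) and Defa39 (7.51 ± 0.66, 0.000283), the gastric mucin Muc5ac (5.26 ± 0.43, 0.00024) and the pancreatic proteases Ctrb1 (3.41 ± 0.29, 0.00024) and Ctrl (4.01 ± 0.39, 0.000604). Below 0 were Hao2, a peroxisomal oxidase (-4.74 ± 0.33, 0.00024), Tgm3 (-4.26 ± 0.32, 0.00024), Eif4ebp3, a translation repressor (-5.05 ± 0.40, 0.00024), Mptx1 (-5.30 ± 0.39, 0.00024) and Cyp2d12, a cytochrome (-4.97 ± 0.44, 0.000283). For Hao2 the wt colon arrays lay at 9.65 and 9.56, the LIN28B/Apcmin colon tumours at 4.35, 4.97 and 4.98, and the wt and LIN28B/Apcmin small intestinal arrays at 4.35 and from 4.24 to 4.27.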

How the results depend on the processing

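The 1781 organ differences of LIN28B/Apcmin tumours numbered 656 with arrays of a shared title number averaged, 950 with only the arrays of the groups compared and 52 with all 16 arrays and every signal kept, where the median of all genes was -0.231. They ranged from 900 to 1663 with 1 array left out. Over all 16 arrays, 36 (Apcmin), 40 (wt), 0 (interaction with Apcmin) and 0 (interaction with wt) genes passed. Over only the arrays compared, 1359, 2183 and 5 passed for the first 3 of these. With signals under 25 kept, the interactions numbered 21 and 128, with title numbers averaged 9 and 128, and without a filter on detection the first was 30. With 1 array left out, the counts ran from 869 to 2277 (Apcmin), 333 to 349 (wt), 4 to 373 and 107 to 313 (interactions). The shares of wt colon, wt small intestinal, Apcmin colon and Apcmin small intestinal genes called again in LIN28B/Apcmin tumours were 21.3%, 44.2%, 21.3% and 25.5% with title numbers averaged, and 13.8%, 28.7%, 31.1% and 39.0% over the arrays compared. They ran from 18.8% to 33.8%, 43.1% to 69.1%, 22.9% to 58.3% and 28.6% to 60.5% with 1 array left out. Over 16 arrays the first was 0% and the Apcmin shares 60% and 87.1%. Median scaling gave 50.2% for wt small intestinal and 28.9% for Apcmin colon genes. With the replicate number as a block, 1563 genes passed and the Apcmin shares were 28.4% and 36.4%, and no other count moved by over 1.5 times. Over 16 arrays the sign turned for Foxa1 (-0.19), Alox5ap (-0.32), Ccn2 (-0.10), Thy1 (-0.23), Marveld3 (-0.13) and Gata4 (0.035). The 2 arrays with almost no signal enter that setting. Of 117 named genes called, 73 kept the call whichever of the 5 arrays was left out, and 74 with title numbers averaged. The cause of the other shifts was not tested.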
